A study of Homo sapiens with 23 samples.

Results

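The baseline transcriptomes of the human multiple myeloma cell lines H929 and OPM2 were compared in the libraries that carried the EV guide. The labels do not say what EV stands for, and it is taken here as the control because the other guide targets IRF4. The comparison used 6 of the 23 RNA-seq libraries, 3 from H929 and 3 from OPM2, chosen by their labels, and covered every gene with enough reads to test. Cells of both lines had been given doxycycline for 48 hours to switch on the guide, and the column names carry the word Cas9, so the baseline is that of cells carrying the editing system and not of untouched parental cells. The same lines with the IRF4 guide, 3 libraries each, were used for a second look at the same difference, and the EV libraries of MM1S (n = 2) and RPMI-8226 (n = 3) gave levels in other myeloma lines. The labels do not say whether the replicates were separate cultures, so every p-value measures the spread between these libraries, which may be technical. Each line stands for 1 tumour, and a difference between them describes these lines.

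Multiple myeloma is a cancer of plasma cells, the antibody-secreting end stage of the B cell lineage. In some myelomas a translocation between chromosomes 4 and 14 places the receptor tyrosine kinase gene FGFR3 and the histone methyltransferase gene NSD2 under the control of the immunoglobulin heavy chain locus. Both H929 and OPM2 are known to carry this translocation. Other myelomas activate a D cyclin or a MAF family gene in the same way, and most malignant plasma cells express a single immunoglobulin light chain, either kappa or lambda.

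The libraries held 27406220, 8390849 and 23137784 counts in H929 and 27485362, 8550347 and 22794645 counts in OPM2, so replicate 2 was the shallowest in both lines. Levels are given as CPM, counts scaled to a common library size. Correlations of log2 CPM between libraries were 0.988 to 0.992 within H929, 0.991 to 0.995 within OPM2 and 0.795 to 0.807 between the lines. Of 28395 genes, 13518 were tested with edgeR's quasi-likelihood test. At a Benjamini-Hochberg adjusted p under 0.05, 9803 genes (72.5%) were called, 4967 (36.7%) higher in H929 and 4836 (35.8%) lower in H929. Because most genes were called, the counts that follow also ask for a 2-fold change: 2747 genes (20.3%) were called at least 2-fold higher in H929 and 1966 (14.5%) at least 2-fold lower, 4713 (34.9%) in all. With limma on the authors' log2 RPKM values the 2-fold calls split into 2521 higher and 2864 lower, and the cause of this other balance was not tested. With RLE factors, another way of scaling the counts, 2795 were higher and 1899 lower. Scaling by library totals only gave 2622 higher and 2116 lower. The 3 values of one line lay wholly above or below those of the other for 10081 genes (74.6%). The median absolute log2 fold change over tested genes was 0.65, and all fold changes are H929 over OPM2. The shares of 20.3% higher and 14.5% lower are the background for every 2-fold count of list members with EV below.

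**Figure D1:**
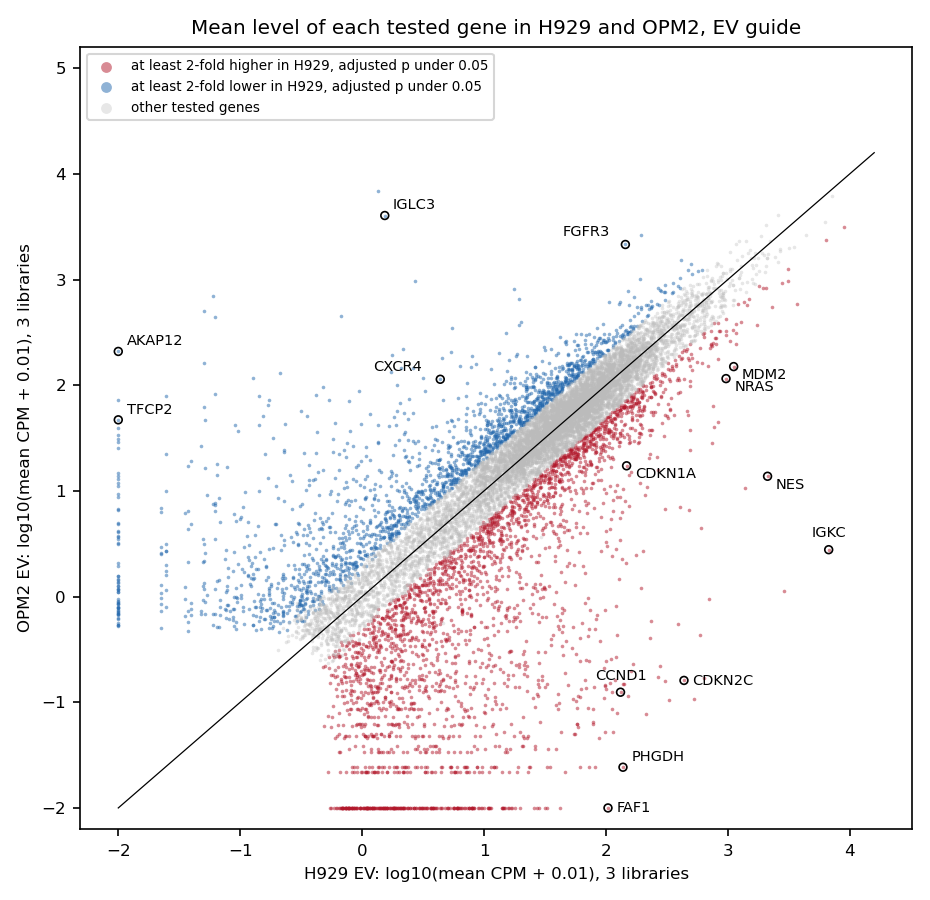
Mean TMM-normalised CPM of each tested gene in the 3 H929 EV libraries (x axis) and the 3 OPM2 EV libraries (y axis), both as log10(CPM + 0.01); red and blue points are the 2747 and 1966 genes called at least 2-fold higher and lower in H929, grey points the other tested genes, and the line marks equal levels. FAF1 and AKAP12 lie on opposite edges, each with 0 counts in one of the lines.

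Both lines had the plasma cell profile that their label calls for. JCHAIN, which joins antibody units, averaged 7174 CPM in H929 and 6167 CPM in OPM2, and XBP1, the factor that expands the secretory pathway, averaged 3193 and 1994 CPM in the same order. The B cell markers PAX5, MS4A1 and CD79A were all under 0.6 CPM in both lines: the highest was PAX5 at 0.548 CPM in H929 and 0.0526 CPM in OPM2.

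FGFR3, the receptor activated by the translocation, had 138, 128 and 167 CPM in the H929 libraries, against 1897, 2272 and 2264 CPM in the OPM2 libraries. The lines did not overlap, and the log2 fold change was -3.89 ± 0.11 (SE; adjusted p = 5.0e-14). The SE of each log2 fold change, here and below, is its size divided by the square root of its F statistic. It can understate the counting error where a line had few reads. MM1S and RPMI-8226, lines without the translocation, averaged 1.09 and 2.48 CPM with the libraries of the 4 lines scaled together, so FGFR3 was far above them in both H929 and OPM2. NSD2, the other gene at the breakpoint, had 792, 767 and 866 CPM in H929, against 1408, 1409 and 1520 CPM in OPM2, a log2 fold change of -0.84 ± 0.08 (adjusted p = 4.8e-08). Of the other FGF genes tested, FGFR1 averaged 12.5 CPM in H929 and 0.0406 CPM in OPM2, where it had 3 reads, a ratio of 248 (95% exact counting interval 84.5 to 1205). The receptor gene FGFR2 and the ligand gene FGF2 had 108 and 120 reads in H929 and 0 in OPM2, at least 37.3-fold and 41.5-fold higher in H929 with a floor of 3 counts over the OPM2 libraries. Counting intervals and floors cover counting error only. The ligand gene FGF9 and FGFRL1, a receptor without a kinase domain, were lower in H929, with log2 fold changes of -6.61 and -2.31.

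CCND1 was higher and CCND2 lower in H929, both D cyclin genes that drive entry into the cell cycle. CCND1 had 143, 128 and 123 CPM in H929, against 0.0722, 0.228 and 0.0429 CPM in OPM2, a log2 fold change of 10.51 ± 0.20 (adjusted p = 1.6e-16). Its neighbour MYEOV, a gene first described in myeloma cells, averaged 215 CPM in H929 and had only 3 reads in the OPM2 libraries together, a ratio of 4383 (95% exact counting interval 1499 to 21256). CCND2 ran the other way, with 162, 184 and 162 CPM in H929 and 717, 671 and 642 CPM in OPM2 (adjusted p = 1.7e-12), with no overlap between the lines, and CCND3 was higher in H929 (1.25 ± 0.08).

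MAF, a transcription factor gene that other myelomas activate by translocation, was moderately higher in H929 (1.32 ± 0.07), where it averaged 169 CPM against 67.5 CPM in OPM2. ITGB7, an integrin beta chain gene, was also higher in H929 (1.44 ± 0.07), and a link to MAF was not tested.

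Of the MYC family, MYC itself had 374, 423 and 403 CPM in H929 and 400, 511 and 449 CPM in OPM2. These ranges overlap and MYC was not called, at -0.18 ± 0.09 (adjusted p = 0.086). With the replicate number as a block the estimate was -0.17 and the gene was called (adjusted p = 0.0042). MYCN was lower in H929, with at most 0.351 CPM against at least 11.4 CPM in OPM2 (-5.64 ± 0.29), and MYCL higher (2.72 ± 0.37). In all, 5 of the 12 translocation oncogenes tested were called at least 2-fold higher and 4 at least 2-fold lower in H929.

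IRF4, the plasma cell transcription factor that the study targets, averaged 2089 CPM in H929 and 1588 CPM in OPM2, a log2 fold change of 0.40 ± 0.12 (adjusted p = 0.00996). That call was lost without H929 replicate 3 (adjusted p = 0.086) and with limma on the authors' log2 RPKM (0.19, adjusted p = 0.22). The study's title names BMF and BIM, pro-apoptotic genes that IRF4 is described there as repressing. BMF had 44.8, 38.6 and 49.6 CPM in H929, against 64.4, 64.4 and 81.5 CPM in OPM2 (-0.65 ± 0.11, adjusted p = 6.8e-05). BCL2L11, which encodes BIM, had 42.2, 44.1 and 44.1 CPM in H929, against 83.2, 92.1 and 92.8 CPM in OPM2 (-1.04 ± 0.08, adjusted p = 8.7e-09). Every H929 library was below every OPM2 library for both genes.

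**Figure D2:**
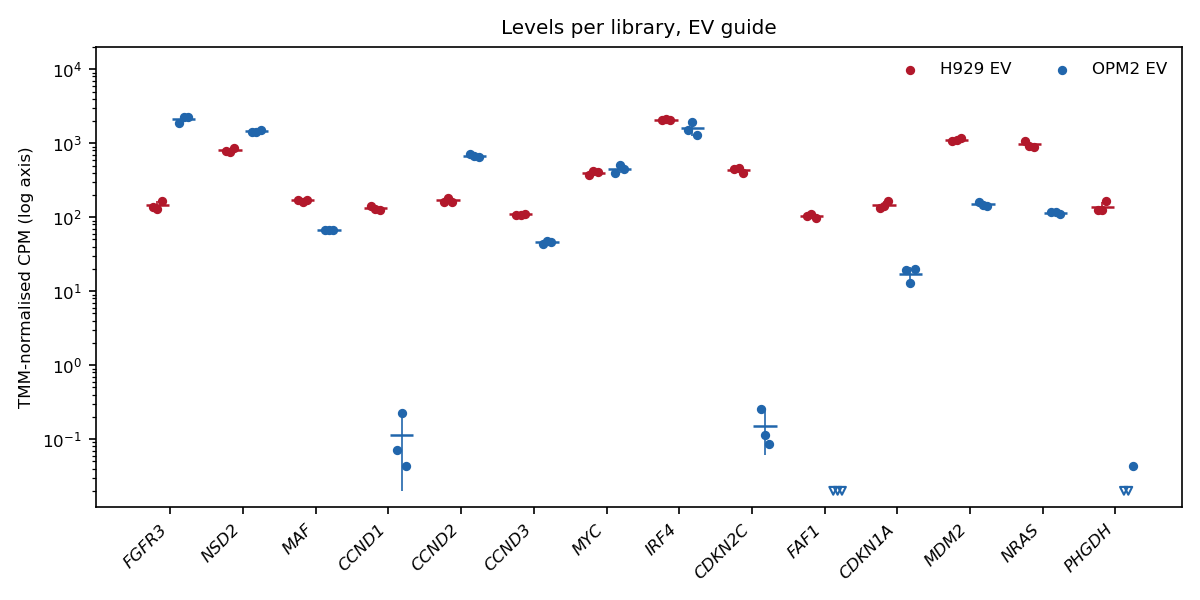
TMM-normalised CPM (log axis) of 14 genes in each EV library, H929 in red to the left of OPM2 in blue; points are libraries, horizontal lines the means and vertical lines the SD (n = 3 each), and open triangles at the bottom mark libraries with 0 counts. CCND1, CDKN2C, FAF1 and PHGDH are near or at 0 in OPM2, while MYC and IRF4 lie close together.

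The lines expressed opposite light chains. IGKC, the kappa constant gene, had 6554, 6325 and 7249 CPM in H929, against 0.975, 2.74 and 4.59 CPM in OPM2 (log2 fold change 11.28 ± 0.51, adjusted p = 1.3e-05). IGLC3, a lambda constant gene, had 0.79, 3.25 and 0.527 CPM in H929, against 3944, 4332 and 3819 CPM in OPM2 (-11.86 ± 0.41, adjusted p = 5.9e-07). The variable segments followed: IGKV3-7 averaged 525 CPM in H929 and 0.0977 CPM in OPM2, while IGLV3-25 averaged 1.35 CPM in H929 and 6805 CPM in OPM2. The joining segments IGKJ1 to IGKJ5 each had 0 counts in OPM2.

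Heavy chain constant genes also differed. IGHG1 had 2 reads in H929 and 819 in OPM2, a ratio of 395 with OPM2 higher (95% exact counting interval 109 to 3266). IGHE averaged 10.6 CPM in H929 and 0.101 CPM in OPM2 (6.30 ± 0.45). Reads of V segments and of lambda constant genes can be shared between near-identical copies, so the level of a single segment is uncertain while the kappa and lambda split does not rest on one of them.

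Other plasma cell genes were mostly higher in H929. Of 22 tested, 6 were called at least 2-fold higher and 1 at least 2-fold lower, and the median log2 fold change was 0.57, against 0.00 over all tested genes. TNFRSF17, which encodes the therapy target BCMA, had 856, 825 and 827 CPM in H929, against 199, 173 and 158 CPM in OPM2 (2.24 ± 0.09). ELL2, an elongation factor that favours secreted immunoglobulin mRNA, averaged 461 CPM in H929 and 56.9 CPM in OPM2 (3.02 ± 0.09), and DERL3, an endoplasmic reticulum degradation factor, 122 and 8.65 CPM in the same order (3.85 ± 0.10). The surface marker CD38 averaged 83.4 CPM in H929 and 23.4 CPM in OPM2. SDC1, the plasma cell surface proteoglycan CD138, was the member called at least 2-fold lower, at 555, 568 and 596 CPM in H929 and 1174, 1208 and 1248 CPM in OPM2 (-1.08 ± 0.07).

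Among 16 tested surface or drug targets of myeloma therapy, 5 were called at least 2-fold higher in H929 and 1, SDC1, at least 2-fold lower. These are 31.25% and 6.25% of the list, against 20.3% and 14.5% of all tested genes. IKZF3, a lymphoid factor degraded by lenalidomide, averaged 206 CPM in H929 and 58.0 CPM in OPM2 (1.83 ± 0.08). The Fc receptor-like gene FCRL5 averaged 8.49 CPM in H929 and 0.168 CPM in OPM2 (5.25 ± 0.38). Of 15 tested genes of the B cell programme, 7 were called at least 2-fold higher in H929 and 1, ETS1, at least 2-fold lower. PTPRC (CD45) was among the 7, at 7.54 CPM against 0.227 CPM in OPM2.

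FAF1 and CDKN2C, which are neighbours on the short arm of chromosome 1, were present in H929 and at or near 0 in OPM2. FAF1, which encodes a FAS-associated adaptor protein, had 103, 111 and 97.7 CPM in H929 and 0 counts in all 3 OPM2 libraries, at least 2031-fold higher in H929. CDKN2C, which encodes the CDK4 and CDK6 inhibitor p18, had 454, 459 and 396 CPM in H929, against 0.253, 0.114 and 0.0857 CPM in OPM2 (11.30 ± 0.18, adjusted p = 3.2e-17). The OPM2 libraries held 10 reads of CDKN2C in all, so this SE understates the counting error. Of the genes around them, only those with a mean of at least 0.1 CPM in either line were looked at. Genes below that level can lie in between, so the ends of the silent stretch are not known. RNF11, the next such gene beyond CDKN2C, averaged 129.9 CPM in H929 and 74.4 CPM in OPM2. The next such gene after RNF11, TTC39A, had 73 reads in H929 and 1 in OPM2. On the other side, BEND5 had 0 reads in H929 and 33 in OPM2, and SPATA6 beyond it averaged 3.50 CPM in H929 and 2.21 CPM in OPM2. The pair was also near 0 in the other lines: FAF1 averaged 0.726 CPM in MM1S and 0.0494 CPM in RPMI-8226, and CDKN2C 0 and 0.0620 CPM, so H929 stood apart among the 4 lines.

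The other cell-cycle inhibitors differed in both directions. CDKN1B (p27) averaged 48.4 CPM in H929 and 199 CPM in OPM2 (-2.04 ± 0.11), and CDKN2A, the p16 and ARF gene, 70.8 and 207 CPM in the same order (-1.55 ± 0.09). CDKN1A (p21) was higher in H929, with 133, 142 and 168 CPM against 19.3, 12.8 and 19.7 CPM in OPM2 (3.05 ± 0.14). Of the 19 tested cyclins, kinases and inhibitors, 5 were called at least 2-fold higher and 5 at least 2-fold lower in H929. Each is 26.3% of the list, against 20.3% and 14.5% of all tested genes.

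MDM2, a ubiquitin ligase gene, had 1080, 1103 and 1163 CPM in H929, against 159, 147 and 144 CPM in OPM2 (2.89 ± 0.08, adjusted p = 1.1e-14). PHLDA3, an inhibitor of AKT signalling, averaged 25.2 CPM in H929 and 0.0986 CPM in OPM2 (7.49 ± 0.31), and CYFIP2 224 CPM and 20.3 CPM in the same order (3.48 ± 0.11). The kinase gene PLK3 and the ribonucleotide reductase gene RRM2B were higher in H929 by 2.27 and 1.66 on the log2 scale. PMAIP1 (NOXA), a pro-apoptotic gene, was lower in H929, with 3.87, 5.42 and 4.30 CPM in H929 and 28.7, 22.9 and 35.1 CPM in OPM2 (-2.74 ± 0.17).

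NRAS, which encodes a RAS GTPase, was higher in H929. It had 1080, 925 and 890 CPM in H929, against 119, 117 and 111 CPM in OPM2 (3.06 ± 0.09, adjusted p = 2.4e-14). H929 is known to carry mutant NRAS. MM1S and RPMI-8226 averaged 225 and 129 CPM of NRAS, so H929 was at the top of the 4 lines.

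Of 30 tested genes of RAS and ERK signalling with its feedback, 11 were called at least 2-fold higher and 5 at least 2-fold lower in H929, and the median log2 fold change was 0.19. Several immediate ERK outputs were among those higher. The early response factor EGR1 averaged 31.6 CPM in H929 and 0.129 CPM in OPM2 (8.22 ± 0.31), the ETS factor ETV4 averaged 38.3 and 2.41 CPM in the same order (3.96 ± 0.14), and the ERK phosphatase genes DUSP6 and DUSP5 were higher by 2.65 and 3.59. The feedback inhibitors did not move together: SPRY4 was higher in H929 (4.89), while SPRY1 averaged 1.65 CPM in H929 and 41.5 CPM in OPM2 (-4.53 ± 0.17) and DUSP4 was lower (-1.37). In PI3K signalling 5 of 26 tested genes were called at least 2-fold higher and 3 at least 2-fold lower in H929, near the shares over all genes. The catalytic subunit gene PIK3CG was higher (3.86), and the kinase gene AKT1 was lower (-1.65).

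The BCL2 family decides whether a cell enters apoptosis through the mitochondria. Among survival members, BCL2 was lower in H929, with 36.6, 37.0 and 44.5 CPM against 121, 111 and 127 CPM in OPM2 (-1.60 ± 0.09), whereas MCL1, on which many plasma cells depend, was higher, with 1263, 1324 and 1749 CPM against 577, 548 and 584 CPM (1.34 ± 0.11). BCL2L1, which encodes BCL-XL, was higher by 0.64. BCL2A1 had 81 reads in H929 and 0 in OPM2, at least 28.0-fold higher. Of 10 pro-apoptotic genes tested, BBC3 (PUMA) and BIK were called at least 2-fold higher in H929 (1.91 and 1.52) and BCL2L11 and PMAIP1 at least 2-fold lower. Each pair is 20% of the list, against 20.3% and 14.5% of all tested genes. The caspase-8 inhibitor gene CFLAR and the caspase inhibitor gene XIAP were higher in H929 (1.59 and 1.53), and CASP6 was lower (-2.64).

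Interferon-stimulated genes, the antiviral programme switched on by interferon receptors through STAT and IRF factors, were mostly higher in H929. Of 22 tested, 17 were called higher, 13 of them at least 2-fold, and 4 lower, 1 of them at least 2-fold, with a median log2 fold change of 1.74. OAS2, a double-stranded RNA sensor, averaged 177 ± 13.2 CPM in H929 and 2.48 ± 0.991 CPM in OPM2 (6.08 ± 0.16, adjusted p = 1.9e-13). ISG20, an exonuclease, averaged 73.9 CPM in H929 and 0.731 CPM in OPM2 (6.44 ± 0.21), the ubiquitin-like modifier gene ISG15 15.5 and 0.462 CPM (4.86 ± 0.24), and the factor gene IRF7 18.2 and 0.505 CPM (5.51 ± 0.27), in the same order. HERC5, the ligase that attaches ISG15, is not among the 22 and was named for the size of its change. It had 1874 reads in H929 and 0 in OPM2, at least 648-fold higher. IFIT5, DDX60, BST2 and STAT2 were the members called lower (-1.55, -0.90, -0.69 and -0.53).

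The promoters of these genes are known for the interferon-stimulated response element. The 250 bases upstream of the annotated start were read from RefSeq (GRCh38.p14) for the 17 of 22 tested genes that had an entry and searched on both strands for GAAA, any 2 bases and GAAA again. The motif was found in 11 of the 17 (64.7%), against 2.40% of the 10600 tested genes with an entry. Of the 11 genes with the motif, 7 were called at least 2-fold higher in H929 and 1 at least 2-fold lower. Of the 6 without it, 4 were called at least 2-fold higher. The median log2 fold changes were 1.96 with the motif and 1.99 without it. The search took 1 pattern and 1 annotated start per gene, so a gene without a match may still hold the element. The part of the element in the difference between the lines was not tested. The 3 promoters below, 5′ to 3′ on the strand of the gene, are shown with matches to the motif in capitals, overlapping matches running together. They are ISG15 (chr1:1013247-1013496, plus strand) and IFIH1, an RNA sensor (chr2:162318685-162318934, minus strand), both higher in H929, and DDX60 (chr4:168318753-168319002, minus strand), lower in H929.
ISG15: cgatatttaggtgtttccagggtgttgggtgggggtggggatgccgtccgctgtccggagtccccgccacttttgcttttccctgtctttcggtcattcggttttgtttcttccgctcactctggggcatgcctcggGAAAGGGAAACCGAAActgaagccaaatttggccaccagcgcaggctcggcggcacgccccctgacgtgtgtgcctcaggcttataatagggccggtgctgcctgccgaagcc
IFIH1: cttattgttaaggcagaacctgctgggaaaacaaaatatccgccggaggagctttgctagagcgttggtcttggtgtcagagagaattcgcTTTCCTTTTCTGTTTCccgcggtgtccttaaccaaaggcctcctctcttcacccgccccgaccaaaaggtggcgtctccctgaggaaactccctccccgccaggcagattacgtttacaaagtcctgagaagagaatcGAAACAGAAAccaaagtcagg
DDX60: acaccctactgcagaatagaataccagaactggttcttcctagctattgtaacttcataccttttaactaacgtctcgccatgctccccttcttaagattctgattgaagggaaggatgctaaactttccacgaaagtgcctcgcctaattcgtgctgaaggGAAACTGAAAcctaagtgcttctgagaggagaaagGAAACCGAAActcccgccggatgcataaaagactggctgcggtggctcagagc

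The APOBEC3 cytidine deaminases, which edit viral and tumour DNA, had 7 of the 8 tested members of their list called at least 2-fold higher in H929 and none called lower. APOBEC3G had 57.4, 53.6 and 62.6 CPM in H929, against 0.0361, 0.114 and 0.0857 CPM in OPM2 (9.63 ± 0.23, adjusted p = 1.4e-15). APOBEC3B averaged 91.1 CPM in H929 and 5.67 CPM in OPM2 (3.99 ± 0.12). The list's median log2 fold change was 5.42, or 3.99 with APOBEC3A, which had 0 reads in OPM2, set at its bound. The family members are near-identical in parts and lie side by side on chromosome 22, so reads may be shared among them.

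Of 16 tested genes of MHC class I presentation, 4 were called at least 2-fold higher and 3 at least 2-fold lower in H929, near the shares over all tested genes. ERAP2, which trims peptides, had 94.6, 97.4 and 109 CPM in H929, against 3.76, 3.88 and 4.97 CPM in OPM2 (4.56 ± 0.13), and the immunoproteasome subunit gene PSMB9 was higher by 2.78. HLA-B averaged 234 CPM in H929 and 536 CPM in OPM2 (-1.19 ± 0.10), and NLRC5, the class I transactivator, was lower too (-1.76 ± 0.11). Alleles of HLA genes can align unequally to the reference, so HLA levels are uncertain between lines.

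Of 25 tested genes of the NF-kB pathway, 9 were called at least 2-fold higher and 2 at least 2-fold lower in H929, with a median log2 fold change of 0.35. The chemokine gene CCL3 had 265, 210 and 220 CPM in H929, against 0.578, 0.913 and 0.257 CPM in OPM2 (8.83 ± 0.19, adjusted p = 8.2e-15), and the adhesion gene ICAM1 averaged 28.5 CPM in H929 and 0.0549 CPM in OPM2 (8.61 ± 0.34). MAP3K14, which encodes the kinase NIK of the non-canonical arm, was lower in H929 (-1.69 ± 0.16). LTBR had 0 reads in H929 and 74 in OPM2, at least 23.8-fold lower in H929.

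Adhesion and homing genes, which hold plasma cells in the marrow, differed in both directions: 12 of 23 tested were called at least 2-fold higher in H929 and 4 at least 2-fold lower. CD44, the hyaluronan receptor, had 779, 695 and 833 CPM in H929, against 45.7, 40.6 and 33.5 CPM in OPM2 (4.27 ± 0.12). The integrin genes ITGAL and ITGA8 averaged 739 and 200.1 CPM in H929 and 28.2 and 2.70 CPM in OPM2. CXCR4, the receptor for the marrow chemokine CXCL12, ran the other way, with 4.36, 5.30 and 3.43 CPM in H929 and 122, 88.5 and 131 CPM in OPM2 (-4.77 ± 0.18). Among 26 tested cytokine receptor and JAK-STAT genes, 11 were called at least 2-fold higher and 2 at least 2-fold lower. IL6R, the receptor for the myeloma growth factor interleukin 6, averaged 1727 CPM in H929 and 368 CPM in OPM2 (2.23 ± 0.10), and JAK3 61.4 and 0.399 CPM in the same order (7.29 ± 0.17), while IL4R was lower in H929 (-2.44).

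Enzyme genes of serine synthesis were called higher in H929. PHGDH, which commits glycolytic carbon to serine, had 125, 125 and 163 CPM in H929, against 0, 0 and 0.0429 CPM in OPM2, where 1 read was counted in all. The ratio was 8377, with a 95% exact counting interval of 1503 to 330932. PSAT1, the next enzyme, had 273, 260 and 297 CPM in H929, against 0.108, 0.228 and 0.300 CPM in OPM2 (10.38 ± 0.17, adjusted p = 3.5e-17), while PSPH, the last enzyme, was expressed in both lines and called higher in H929 by 1.56 ± 0.35. PHGDH averaged 57.7 CPM in MM1S and 21.8 CPM in RPMI-8226, so OPM2 stood apart among the 4 lines. Of 21 tested genes of the ATF4 and amino acid response, to which these belong, 6 were called at least 2-fold higher in H929 and 1, the cystine transporter gene SLC7A11, at least 2-fold lower. The SLC7A11 call was lost without H929 replicate 1 or 3 (adjusted p = 0.059 and 0.054).

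Genes of sterol and fatty acid synthesis were mostly lower in H929. Of 27 tested, 12 were called at least 2-fold lower and 1 at least 2-fold higher, with a median log2 fold change of -0.85. FDFT1, which makes squalene, had 55.1, 51.5 and 64.9 CPM in H929, against 298, 289 and 322 CPM in OPM2 (-2.40 ± 0.09), and INSIG1, a sterol sensor and target, averaged 152 CPM in H929 and 787 CPM in OPM2 (-2.38 ± 0.15). IDI1, LSS, SQLE and SCD had log2 fold changes between -1.50 and -2.19. FADS2, a desaturase, was the member called at least 2-fold higher, at 106, 131 and 154 CPM in H929 and 2.71, 4.45 and 3.09 CPM in OPM2 (5.36 ± 0.18).

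The unfolded protein response, which supports secretion, had 9 of 26 tested genes called at least 2-fold higher in H929 and none at least 2-fold lower, with a median of 0.76. SEL1L, part of the endoplasmic reticulum degradation complex, averaged 1279 CPM in H929 and 395 CPM in OPM2 (1.70 ± 0.08), the lectin chaperone gene CANX 2754 and 931 CPM (1.56 ± 0.07), and the chaperone gene HSPA5 1352 and 611 CPM (1.15 ± 0.07), in the same order. Lysosome and autophagy genes had 9 of 23 called at least 2-fold higher and 1 at least 2-fold lower. The cathepsin gene CTSL had 1011 reads in H929 and 0 in OPM2, at least 349-fold higher, and CTSS was higher by 7.16. In glycolysis and the hypoxia response, 6 of 22 were called at least 2-fold higher and 2 at least 2-fold lower. These are 27.3% and 9.09% of the list, against 20.3% and 14.5% of all tested genes. BNIP3, a mitophagy receptor, had 68.9, 65.7 and 104 CPM in H929, against 0.144, 0.114 and 0.129 CPM in OPM2 (9.16 ± 0.31).

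Genes of growth and division, the respiratory chain and the proteasome had few 2-fold calls. At least 2-fold calls numbered 2 of 28 for DNA replication, 2 of 28 for mitosis, 3 of 30 for MYC targets and the nucleolus, 3 of 27 for the respiratory chain and 4 of 32 for the proteasome, each a smaller share than the 34.9% of all tested genes. Their median log2 fold changes were 0.09, -0.12, 0.12, -0.27 and 0.03. The exceptions included CENPF, a kinetochore protein gene (-1.54), and NPM1, a nucleolar chaperone gene on chromosome 5 (1.62).

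**Figure D3:**
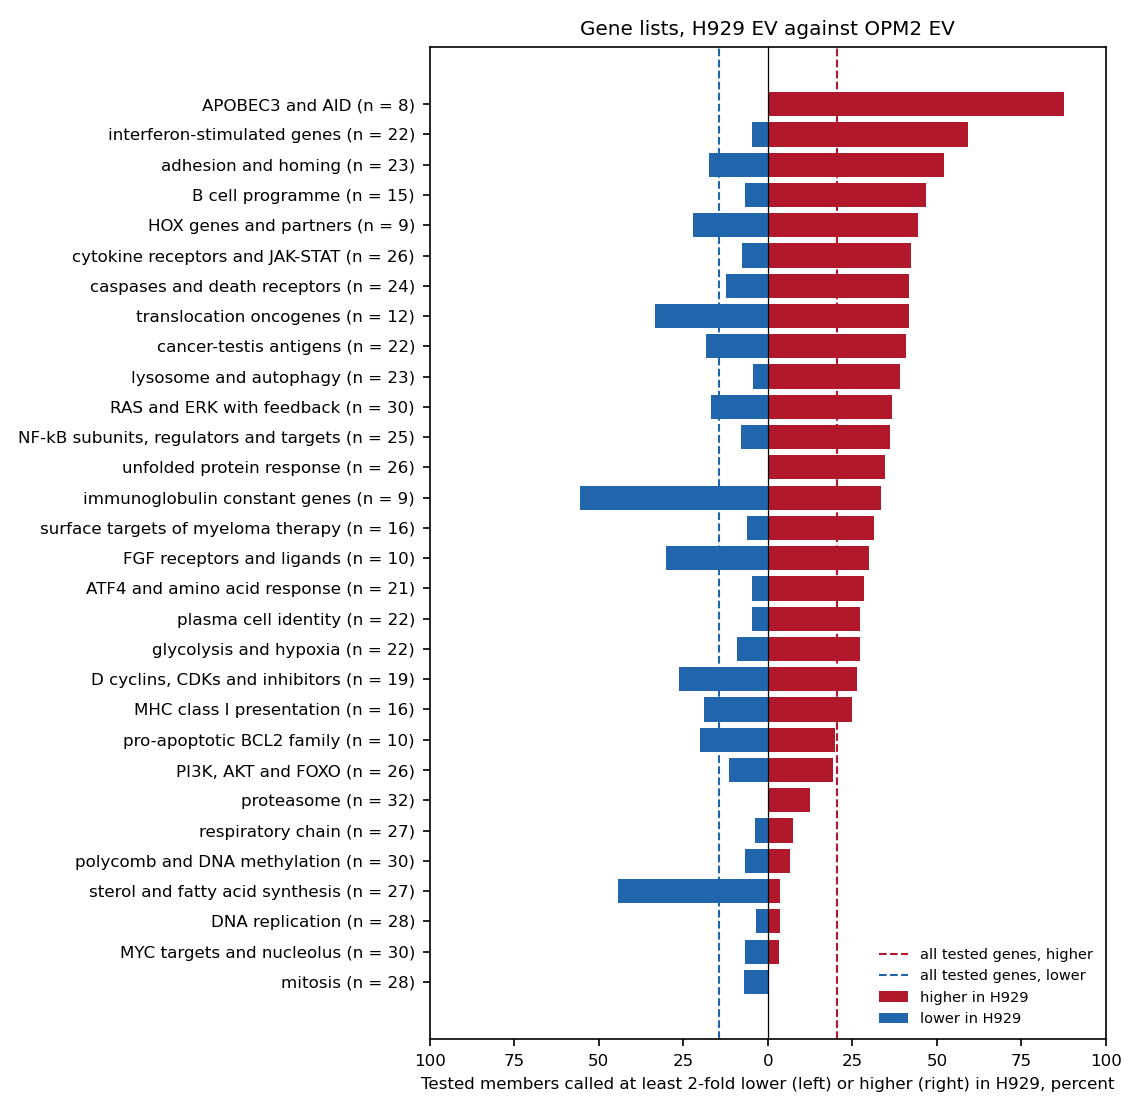
Share of tested members of gene lists with 8 or more tested genes called at least 2-fold higher in H929 (red, right) or at least 2-fold lower (blue, left) against OPM2, EV guide; dashed lines mark 20.3% and 14.5%, the shares over all 13518 tested genes. The APOBEC3 and interferon lists reach farthest right, the immunoglobulin constant and sterol lists farthest left, and mitosis, MYC targets and DNA replication stay near 0.

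Cancer-testis antigens, germline genes reopened in tumours, differed gene by gene: of 22 tested, 9 were called at least 2-fold higher and 4 at least 2-fold lower in H929. MAGEB2 averaged 112 CPM in H929 and 0.114 CPM in OPM2 (10.28 ± 0.20), and SSX1 142 and 0.139 CPM in the same order (9.82 ± 0.18), whereas CTAG2 averaged 13.3 CPM in H929 and 201 CPM in OPM2 (-3.92 ± 0.10). These families hold near-identical copies, so single-gene levels are uncertain. Of 9 tested HOX genes and partners, HOXB7 was among 4 called at least 2-fold higher, and the partner gene PBX3 was lower in H929 (-3.07).

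Markers of other cell types were checked in both lines. Of 19 T and NK cell markers, 3 reached 1 CPM in H929 and 0 in OPM2, and all 19, tested or not, summed to 30.6 to 36.8 CPM in the H929 libraries and 1.37 to 2.40 CPM in the OPM2 libraries. The 3 were TRBC1, CD3E and PRF1; TRBC1 averaged 15.5 CPM in H929, and CD3E 13.4 CPM in H929 and 0.0767 CPM in OPM2. TRBC2, named for the size of its change, had 2491 reads in H929 and 0 in OPM2, at least 861-fold higher. CD3D, LCK, CD5, CD8A and KLRD1, other T and NK cell markers, had 0 reads in H929. The 14 myeloid markers summed to 2.26 to 3.38 CPM in H929 and 2.83 to 4.30 CPM in OPM2, with CD33 making up 75.1% in H929 and 91.7% in OPM2. The 14 erythroid and megakaryocyte markers summed to 0.602 to 0.791 CPM in H929 and 2.51 to 3.65 CPM in OPM2, where HBB made up 85.8%. Stromal and epithelial markers summed to 1693 to 1869 CPM in H929 and 1573 to 1948 CPM in OPM2, most of it VIM, which was not called, with EPCAM, COL3A1, PDGFRA and COL1A2 at 0 reads in both. The part of other cells in any result was not tested.

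A set of genes was expressed in one line and nearly silent in the other. With at least 10 CPM in one line and under 0.1 CPM in the other, 105 genes (0.777% of those tested) were on in H929 and 33 (0.244%) on in OPM2. Of these 33, 32 were looked up for the promoter counts that follow. AKAP12, a scaffold for protein kinase A, had 0 counts in H929 and 224, 192 and 211 CPM in OPM2, at least 4110.0-fold lower in H929. Other genes with 0 counts in H929 were the transcription factor gene TFCP2, at least 909-fold lower, and the calcium channel subunit gene CACNG6, at least 666-fold lower. On the other side, FOXJ1, a cilia regulator, and NCF1, a subunit of the phagocyte oxidase with close pseudogene copies, had 0 counts in OPM2 and were at least 537-fold and 557-fold higher in H929.

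CG dinucleotides, the sites of DNA methylation, were counted in the 250 bases upstream of these genes' starts in RefSeq. The 72 of 105 genes on in H929 with an entry had a median of 18.5, and the 18 of 32 genes on in OPM2 with an entry a median of 16.5. The median was 22 in 6704 genes at 10 CPM or more in both lines and 21 in all 10600. Shares with 10 or more CG were 76.4%, 77.8%, 91.1% and 85.2% in the same order. Methylation itself was not measured. The promoters of PHGDH (chr1:119711684-119711933, plus strand, 11 CG), on in H929, and AKAP12 (chr6:151239717-151239966, plus strand, 13 CG), on in OPM2, are shown 5′ to 3′ with each CG in capitals, as an enzyme gene and a scaffold gene that were on in only one of the lines.
PHGDH: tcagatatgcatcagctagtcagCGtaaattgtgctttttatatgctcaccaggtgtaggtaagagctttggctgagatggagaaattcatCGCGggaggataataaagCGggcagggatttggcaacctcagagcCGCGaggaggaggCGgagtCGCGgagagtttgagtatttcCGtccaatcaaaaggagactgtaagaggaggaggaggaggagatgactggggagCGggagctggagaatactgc
AKAP12: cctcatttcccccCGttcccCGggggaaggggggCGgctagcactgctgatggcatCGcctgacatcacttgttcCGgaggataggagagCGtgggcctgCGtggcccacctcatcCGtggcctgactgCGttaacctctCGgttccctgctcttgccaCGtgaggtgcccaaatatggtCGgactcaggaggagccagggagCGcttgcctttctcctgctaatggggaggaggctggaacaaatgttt

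Among genes at 10 CPM or more in both lines, the largest differences ran in both directions. NES, which encodes the intermediate filament nestin, had 2089, 2083 and 2174 CPM in H929, against 13.8, 11.2 and 16.2 CPM in OPM2 (7.23 ± 0.12, adjusted p = 4.3e-17). It was followed by the AMP deaminase gene AMPD1, at 1379 CPM in H929 and 10.7 CPM in OPM2 (6.99 ± 0.14), ITGAL (4.68), the DNA sensor gene IFI16 (4.35) and SEL1L3 (4.31). In the other direction, PLD4, a phospholipase family exonuclease gene, averaged 17.5 ± 1.53 CPM in H929 and 817 ± 96.5 CPM in OPM2 (-5.56 ± 0.12, adjusted p = 3.2e-16). The muscle myosin-binding gene MYBPC2 averaged 19.3 CPM in H929 and 659 CPM in OPM2 (-5.05 ± 0.15), and the phosphatase gene PTP4A3, the elongation factor gene EEF1A2 and CKAP4 had log2 fold changes between -4.26 and -4.34.

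The differences were not spread evenly over the genome. Over 606 tested genes on chromosome 5 the median log2 fold change was 0.84, and 42.2% were called at least 2-fold higher in H929. Over 231 genes on chromosome 13 it was -0.85, and 41.6% were called at least 2-fold lower. All other chromosomes had medians between -0.35 and 0.34. DNA copy number was not measured here, so its part was not tested.

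In windows of 50 neighbouring tested genes the medians ran from -0.76 at the 5th percentile to 0.85 at the 95th. The highest window lay on chromosome 1, at chr1:109494094-114780685 (RefSeq, GRCh38.p14), from CYB561D1 to SIKE1. Its median was 1.76, 43 of its 50 genes were called at least 2-fold higher in H929 and 1 at least 2-fold lower, and it holds NRAS and AMPD1. The lowest lay on chromosome 12, at chr12:10588478-26079889, from KLRA1P to RASSF8, with a median of -1.52 and 36 of 50 genes called at least 2-fold lower, and it holds CDKN1B and the lactate dehydrogenase gene LDHB. A chromosome 8 window from MTDH to MAL2 (median 1.33, 39 of 50 higher) holds RRM2B, and chromosome 5 windows held ELL2, ERAP1, ERAP2, CYFIP2, CANX, NPM1, MZB1 and EGR1. Members within a window share a position, so a gene named from a pathway list above may also be one of a block of neighbours.

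**Figure D4:**
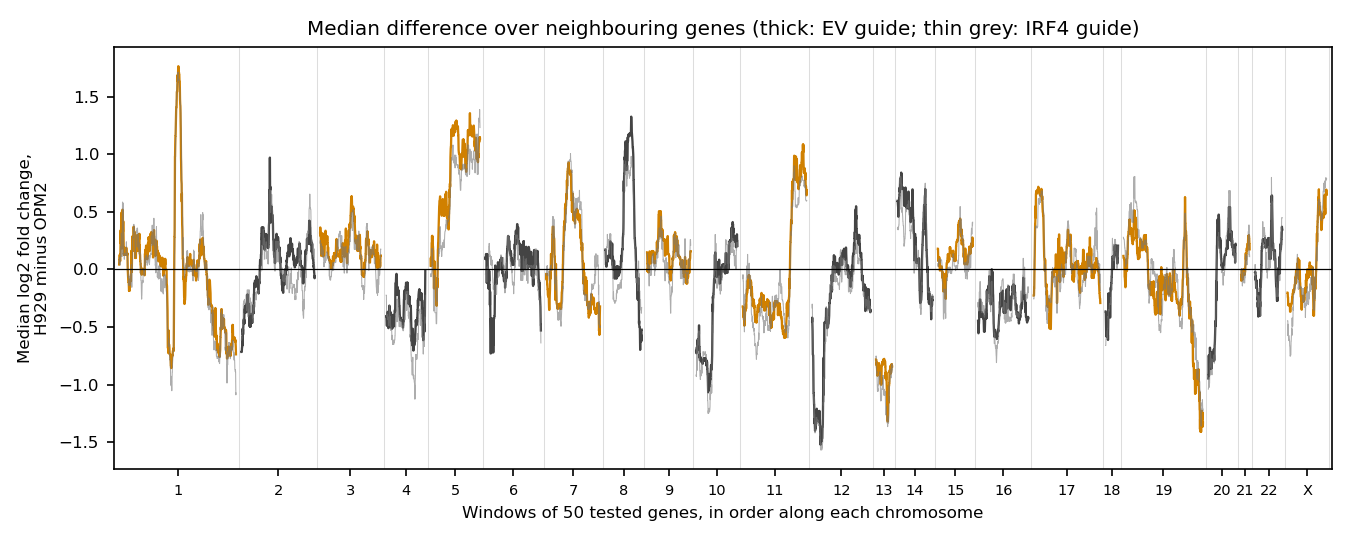
Median log2 fold change, H929 minus OPM2, over sliding windows of 50 tested genes in order along each chromosome; thick lines (alternating colours by chromosome) are the EV libraries and thin grey lines the IRF4-guide libraries. The highest point is on chromosome 1 (1.76) and the lowest on chromosome 12 (-1.52), and chromosomes 5 and 13 sit above and below 0 along most of their length.

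Runs of 3 or more neighbouring genes that were over 1 CPM in one line and under 0.1 CPM in the other numbered 8. Genes below 1 CPM in both lines were passed over, so members of a run need not be adjacent. Immunoglobulin segments made up 3 of them and T cell receptor gamma segments with AMPH 1. The other 4 were silent in OPM2: FBXO2, FBXO44 and FBXO6, F-box genes on chromosome 1; DPYSL3, JAKMIP2 and SPINK5 on chromosome 5; KIF19, CD300A and CD300C on chromosome 17; and SLC17A9, HAR1B and HAR1A on chromosome 20. In these 4 runs the levels in H929 reached 80.8 CPM (SLC17A9), 54.3 CPM (JAKMIP2) and 45.7 CPM (CD300A).

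The same lines with the IRF4 guide gave a second measurement in 6 libraries that share no sample with the EV comparison. Of 14320 tested genes, 10959 (76.5%) were called, 5518 (38.5%) higher and 5441 (38%) lower in H929, and 5479 (38.3%) were called at least 2-fold different, 3199 (22.3%) higher in H929 and 2280 (15.9%) lower (3002 and 3546 with limma on log2 RPKM). Of the 2747 genes at least 2-fold higher in H929 with EV, 2237 were also called at least 2-fold higher with the IRF4 guide, which is 81.4% of the EV genes and 69.9% of the IRF4-guide genes. Of the 1966 at least 2-fold lower, 1436 were again, 73.0% of the EV genes and 63.0% of the IRF4-guide genes. Called in the opposite direction were 16 and 30 genes.

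FAF1, CDKN2C, PHGDH, PSAT1, NRAS, MDM2 and CXCR4 kept their direction, with IRF4-guide log2 fold changes of 9.62, 11.76, 8.96, 8.92, 3.19, 3.16 and -4.99. FGFR3 averaged 368 ± 53.4 CPM in H929 and 1455 ± 222 CPM in OPM2 with the IRF4 guide (SD, n = 3 each), a log2 fold change of -1.98 ± 0.13, smaller in size than with EV (interaction 1.86, adjusted p = 4.9e-06). CCND3 averaged 79.0 CPM in both lines with the IRF4 guide, and its interaction was -1.29 (adjusted p = 6.1e-08). Each interaction is also the difference between the lines in the guide's effect, and the IRF4-guide libraries are another state of the cells rather than more baseline replicates.

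Over all genes tested with the IRF4 guide, 22.3% were called at least 2-fold higher in H929 and 15.9% at least 2-fold lower. Interferon-stimulated genes with that guide had 16 of 22 called at least 2-fold higher in H929 and none at least 2-fold lower. Sterol and fatty acid genes had 8 of 27 at least 2-fold lower and 1 at least 2-fold higher. Both division lists near 0 with EV were not so with the IRF4 guide: DNA replication had 15 of 28 genes called at least 2-fold lower in H929 (median -1.01) and mitosis 10 of 28 (median -0.79).

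**Figure D5:**
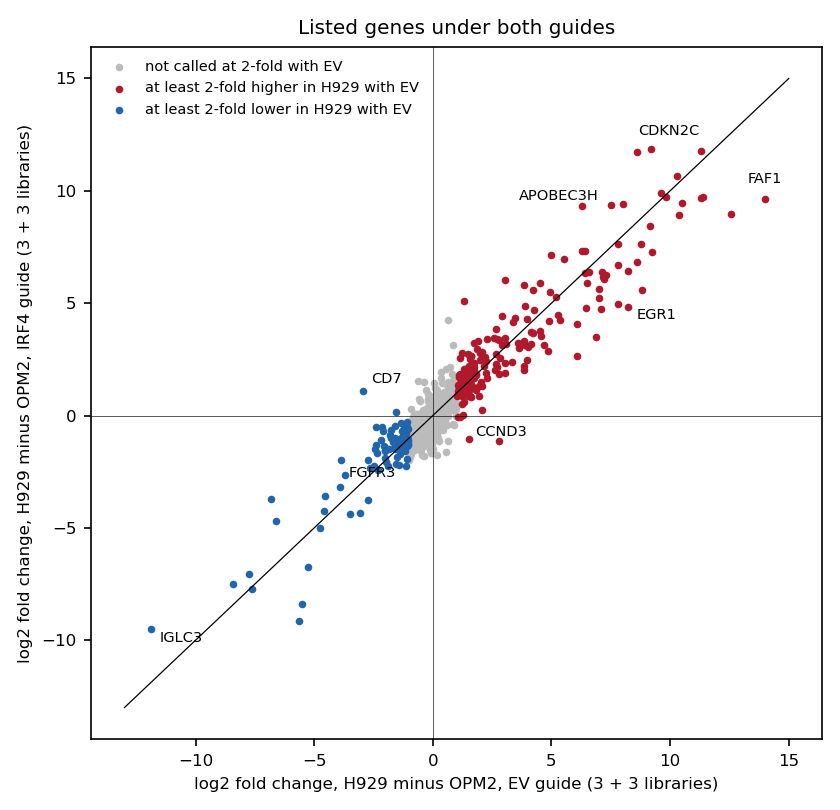
Log2 fold change, H929 minus OPM2, of the listed genes tested with both guides, EV on the x axis and IRF4 guide on the y axis (3 libraries of each line per guide); red and blue points were called at least 2-fold higher and lower in H929 with EV, grey points were not, and the line marks equal values. Most coloured points keep their sign, and CD7 lies across 0.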

How the data were processed

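RNA was sequenced from TruSeq libraries, per the labels' protocols. The authors' deposited table holds raw counts per gene (Subread and featureCounts on GRCh38, hg38, per the submitters' processing notes; versions and strandedness: not given in the sources used here). Reads of overlapping or antisense genes therefore cannot be told apart. The deposited per-sample log2 RPKM values were made by the authors with limma, per the same notes, and served as an alternative only. Libraries were taken by their labels. Counts of the 6 EV libraries were filtered (filterByExpr), scaled by TMM and tested with edgeR 4.0.16 in R 4.3.3 (glmQLFit, robust; Benjamini-Hochberg over all tested genes); levels are TMM-normalised CPM. The IRF4-guide libraries were fitted alone in the same way, and the interaction in all 12 libraries. Limma 3.58.1 and DESeq2 1.42.0 were alternatives, with other scaling, filters, samples, a replicate block and each library left out. On simulated counts for this comparison over 13274 genes, 92% of 2-fold and 100% of 4-fold changes were called, with 0.153% of unchanged genes. The simulation changed 100 genes at each size, evenly in both directions and none with few reads. It does not cover scaling when most genes differ, genes with few reads or replicates that deviate together.

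Same-numbered EV libraries deviated together (correlations 0.160, 0.109 and 0.178), which meets the criterion for pairing, from the data and not the labels; all values given are nevertheless from the fit without a replicate block, and the block was an alternative. Genes without a symbol held 0.180% of counts in H929 and 0.190% in OPM2; the 10 highest genes held 5.23% and 3.94%. Replicates differed beyond sampling noise. Positions came from RefSeq by Entrez ID (27745 of 28395 genes matched).

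The comparison and the gene lists were chosen with earlier results of these data known, and no list was given a set test. Genes were named by rule: the translocation oncogenes and genes of the title, the 12 largest changes each way at 10 CPM in the higher line and at 10 CPM in both lines, up to 5 members of each list that passed at 2-fold, taken by adjusted p, all members of short lists, and runs of silent neighbours. FCRL5, SPATA6, RNF11, TTC39A, BEND5, BST2, STAT2, CDKN1A, DUSP4, DUSP5, DUSP6, SPRY4, CASP6, ISG15, IFIH1, IFIT5, DDX60, LTBR, CXCR4, PSPH, INSIG1, SCD, VIM, CCNE2 and IL2RG were chosen after their values were seen. Some genes and gene lists are not reported here.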

Additional observations from a re-analysis of the deposited data

Results flagged for a closer look

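Whether the difference between H929 and OPM2 was another with the IRF4 guide than with EV was tested as an interaction (edgeR over 12 libraries, Benjamini-Hochberg adjusted). The 9 genes given here were picked for an adjusted p under 0.05, so their p-values are not independent support. CD7, CCNE2 and IL2RG were picked also because they were called at least 2-fold in opposite directions with EV and with the IRF4 guide. CD7, a T and NK cell surface gene, averaged 24.9 CPM in H929 and 11.9 CPM in OPM2 with the IRF4 guide, and 0.0920 CPM in H929 and 0.955 CPM in OPM2 with EV (interaction 3.97, adjusted p = 0.0014). CCNE2, the cyclin E2 gene, averaged 6.04 CPM in H929 and 12.4 CPM in OPM2 with the IRF4 guide, and 33.2 CPM in H929 and 11.8 CPM in OPM2 with EV (interaction -2.59, adjusted p = 5.3e-06). IL2RG, the shared cytokine receptor chain gene, averaged 6.79 CPM in H929 and 15.3 CPM in OPM2 with the IRF4 guide, and 1.96 CPM in H929 and 0.277 CPM in OPM2 with EV (interaction -3.96, adjusted p = 7.2e-06).

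Of the translocation oncogenes, IRF4, BMF and BCL2L11, only genes with a called interaction are given. It was 1.86 for FGFR3, 0.72 for NSD2, 0.41 for CCND2, -1.29 for CCND3 and -3.51 for MYCN. IRF4 itself, the gene the guide targets, averaged 730.4 CPM in H929 and 1069 CPM in OPM2 with the IRF4 guide (interaction -0.99, adjusted p = 0.026). Over all 14684 genes tested for the interaction, 4021 (27.4%) had an adjusted p under 0.05 and 1126 (7.67%) also a size of at least 1.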

How the results depend on the processing

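The 9803 called genes became 9415 with DESeq2, 8926 with a mean of at least 1 CPM, 10878 without a filter, 10769 with all 23 libraries in the fit, and 9380 to 9694 with 1 library left out. The 4713 genes called at least 2-fold became 3577 when tested against a 2-fold change, 5771 without a filter and 4726 to 4922 with 1 library left out. With the replicate number as a block, 10588 genes were called; of the named genes MYC became called (-0.17) and the block changed no other call. On the deposited log2 RPKM values, the median over all tested genes was -0.14 and 44.8% of calls were higher in H929, against 50.7% of the counts' calls, the EV genes at least 2-fold different split into 2521 higher and 2864 lower, against 2747 and 1966, and the IRF4-guide genes into 3002 higher and 3546 lower, against 3199 and 2280; the cause was not tested. With library totals only, the IRF4-guide median moved to -0.10 and 45.5% of its calls were higher in H929. No named gene changed sign while called. CD33, FGF13, FGFR4, FRS2, IRF4, SLC7A11 and TAP1 lost their call under at least 1 alternative, and DKK1, HLA-DOB and MYC gained one. With the 8390849 counts of the shallowest library, genes under about 1 CPM rest on few reads, and a level of 0 is a limit on detection.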
